A study of Mus musculus with 22 samples.

Results

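The genes described here are 32 genes that mark microglia, the resident macrophages of the brain. They were taken as every non-control probe whose RefSeq transcript belongs to a member gene, which gave 44 probes for 32 genes, of 55681 probes and 21176 named genes on the array. TgproNGF#3 mice carry a pre-proNGF cDNA mutated at the furin cleavage site, followed by an IRES and EGFP, under the neuronal Thy1.2 promoter. Both genotypes were of the C57Bl/6xDBA/2 strain, the mice were untreated, and RNA came from the right hippocampus. Each genotype had 4 males aged 1 month, 4 males aged 3 months and 3 females aged 12 months, with 1 array per mouse (22 arrays). Age and slide therefore cannot be told apart when ages are compared, nor sex in comparisons with 12 months.

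Microglia arise from yolk sac progenitors, depend on signalling through the receptor Csf1r, and patrol the hippocampus with motile processes. In the healthy brain they sense neurons through receptors such as Cx3cr1 and P2ry12, and clear debris and synaptic material with help from complement C1q and lysosomal proteases. On injury or with disease they lower homeostatic receptors and turn on a Trem2 and Tyrobp dependent programme. Several members (Csf1r, Ptprc, Tyrobp, the C1q genes, Aif1, Cd68) are also expressed by macrophages of the meninges, vessels and choroid plexus, so in whole hippocampus they report on all of these cells.

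Levels are log2 intensities relative to the array's 75th percentile, so that a level of 0 equals that percentile. A Log2 FC is the TgproNGF#3 mean minus the WT mean on that scale. Levels of different probes are not comparable. Between 57.6% and 80.3% of the spots of an array were well above background, and the 75th percentile lay between 10.41 and 11.96 (log2 intensity). The brightest probe, used here for each gene, was well above background for 30 of the 32 genes on 22 of 22 arrays. The exceptions were Cd53 (20 arrays) and Spi1 (8 arrays, all of 1 month). All 8 neuronal markers checked were well above background on every array.

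PU.1, the product of the member Spi1, is the transcription factor that defines the macrophage lineage and binds a purine-rich core, GAGGAA, which reads TTCCTC on the other strand. Promoters of 300 bases (250 before and 50 after the transcript start, RefSeq, GRCm38.p6) were at hand for 24 of the 32 genes, 27 promoters in all. The core lay on either strand in 17 of the 24 genes (70.8%), against 31.3% of all 27025 genes in the table. Counted by promoter it was in 66.7% of the members' and 28.3% of all 32851. In 7 of the 27 members' promoters (25.9%, against 4.4% of all) the match began between positions -60 and -20 (0 is the first transcribed base), a window chosen after the matches were seen. A match is a description of letters and does not show binding. The promoters of 4 genes that the results turn on are printed with the core in capitals: Trem2 (chr17:48346151-48346450, + strand), Laptm5 (chr4:130913066-130913365, + strand), Cd53 (chr3:106790100-106790399, - strand) and Mpeg1 (chr19:12460520-12460819, + strand), the last without a match.
Trem2: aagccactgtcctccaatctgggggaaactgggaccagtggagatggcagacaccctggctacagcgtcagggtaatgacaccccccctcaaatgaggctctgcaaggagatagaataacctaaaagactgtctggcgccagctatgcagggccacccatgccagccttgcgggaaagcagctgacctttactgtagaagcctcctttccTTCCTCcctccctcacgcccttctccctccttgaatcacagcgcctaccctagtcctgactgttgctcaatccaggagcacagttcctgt
Laptm5: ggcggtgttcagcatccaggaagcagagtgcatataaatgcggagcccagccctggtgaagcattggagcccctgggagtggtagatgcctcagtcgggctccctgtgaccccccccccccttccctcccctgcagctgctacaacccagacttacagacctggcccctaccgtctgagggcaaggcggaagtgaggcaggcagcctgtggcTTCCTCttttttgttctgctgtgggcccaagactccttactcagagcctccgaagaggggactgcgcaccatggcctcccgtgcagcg
Cd53: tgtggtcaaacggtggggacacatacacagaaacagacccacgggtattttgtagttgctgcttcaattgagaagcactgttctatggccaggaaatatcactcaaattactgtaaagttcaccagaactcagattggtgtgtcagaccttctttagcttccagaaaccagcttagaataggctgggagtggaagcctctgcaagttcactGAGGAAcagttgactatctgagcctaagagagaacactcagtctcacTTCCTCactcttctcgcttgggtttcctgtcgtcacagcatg
Mpeg1: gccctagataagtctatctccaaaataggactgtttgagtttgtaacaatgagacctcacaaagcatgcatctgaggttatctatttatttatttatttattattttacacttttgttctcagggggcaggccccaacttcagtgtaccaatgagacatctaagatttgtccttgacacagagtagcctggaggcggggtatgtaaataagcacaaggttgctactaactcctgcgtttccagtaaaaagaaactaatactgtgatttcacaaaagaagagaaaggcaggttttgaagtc
In Trem2, Laptm5 and Cd53 a match began at positions -40, -38 and -39. Cd53 held a further match, on the other strand, at position 8.

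In TgproNGF#3 mice the microglial genes were a little higher than in WT at 1 month, scattered around WT at 3 months, and a little lower at 12 months, and a single gene, Cd53 at 3 months, passed the threshold of an unadjusted limma p below 0.05 with a Log2 FC beyond 1. At 1 month 30 of 32 genes had a Log2 FC above 0, against 67.2% of all genes tested, with a median of 0.248 over the members and 0.072 over all genes. None was called, against 0.347% of all genes, and 3 reached an unadjusted p below 0.05, all higher (2.86% of all genes in either direction). At 3 months 14 of 31 genes had a Log2 FC above 0 (43.8% of all genes) and the median was -0.032 (-0.055 over all genes). Cd53 was called lower, 1 of 31 against 4.13% of all genes, and 2 genes were higher and 6 lower at an unadjusted p below 0.05, against 24.9% of all genes. At 12 months 25 of 31 genes had a Log2 FC below 0 (40.1% of all genes), with a median of -0.192 against 0.061 over all genes. None was called (1.18% of all genes), and 4 were lower at an unadjusted p below 0.05 (8.1% of all genes). Scaled to the median of the array instead, the members' median at 12 months was -0.043 and that of all genes 0.21. In bulk RNA fewer microglia and less RNA per microglial cell cannot be told apart. The members' median minus that of all genes was 0.176 at 1 month, and 0.095 without WT replicate 1. The same difference was -0.253 at 12 months, and -0.062 with the row of the array on the slide as a block.

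**Figure D1:**
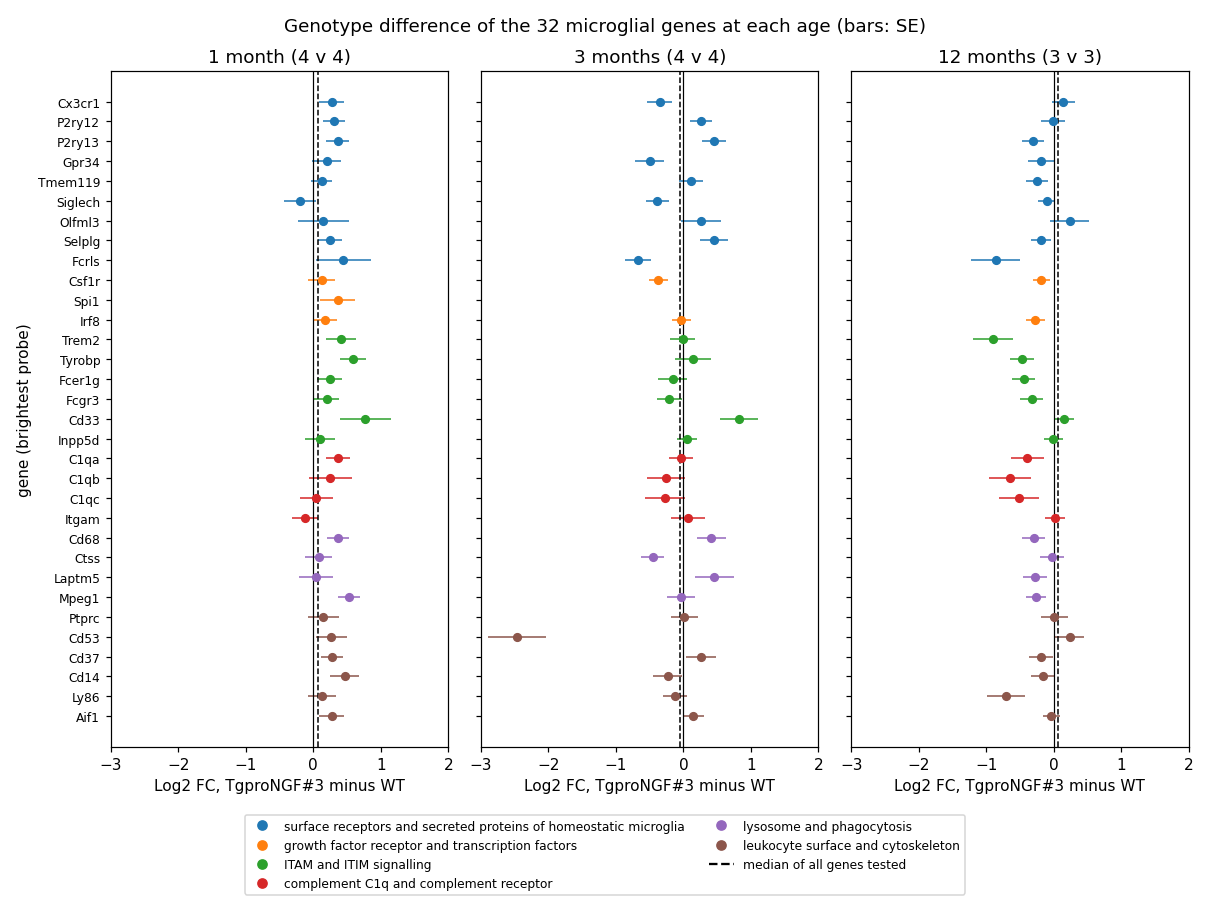
Log2 FC (x axis) of the brightest probe of each gene (y axis, coloured by role) at the 3 ages, with bars of 1 SE and a dashed line at the median of all genes tested. At 1 month 30 of 32 points lie right of 0, at 3 months Cd53 alone lies beyond -1, and at 12 months 25 of 31 lie left of 0; Spi1 has no point at 3 and 12 months because it was not well above background.

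On the slide of 1 month WT filled columns 1 and 2 and TgproNGF#3 columns 3 and 4, and slide column and genotype cannot be told apart for the 1-month differences. At 3 months both genotypes lay in all 4 columns. At 12 months the row of the slide went with genotype in part. All 3 TgproNGF#3 arrays lay in the same row of the slide as WT replicate 3, while WT replicates 1 and 2 lay in the other row. Expressed as the members' median relative to the WT mean, the TgproNGF#3 arrays stood at -0.236, -0.334 and -0.125 and the WT arrays at 0.111, 0.068 and -0.164. WT replicate 3 thus lay among the TgproNGF#3 arrays, and for 22 of 31 members its level was inside their range. Within that row the TgproNGF#3 mean, rounded to 2 decimals, lay below WT replicate 3 for 22 of 31 members, with C1qa level at -0.04. With array row as a block, which leaves TgproNGF#3 against WT replicate 3, the members' median was -0.043, against 0.019 over all genes. Without WT replicate 3 the members' median was -0.294, against 0.084 over all genes, and 3 members (Fcrls, Trem2 and Ly86) were called lower. The share of all genes called in that fit is not given, so this count has no comparison. Row and genotype are therefore only partly separable at 12 months.

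Among the receptors and secreted proteins of homeostatic microglia (9 genes), 8 were above WT at 1 month, 5 at 3 months and 2 at 12 months. Cx3cr1, the receptor for the neuronal chemokine Cx3cl1, stood at 2.02, 1.96, 1.89 and 1.63 in TgproNGF#3 and 1.47, 1.37, 1.96 and 1.61 in WT at 1 month. At 3 months it was 1.58, 0.91, 0.73 and 1.04 against 1.5, 1.38, 1.37 and 1.41, and at 12 months 1.44, 1.58 and 1.42 against 1.61, 1.10 and 1.29. The groups overlapped at every age, with Log2 FC of 0.27 ± 0.18 (SE), -0.35 ± 0.19 and 0.14 ± 0.17. P2ry12 and P2ry13, purinergic receptors that steer processes towards released nucleotides, had Log2 FC of 0.31 and 0.36 at 1 month and 0.26 and 0.46 at 3 months. At 12 months the values were -0.01 and -0.30. P2ry13 at 3 months had an unadjusted limma p of 0.0285 and an adjusted p of 0.135.

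Fcrls, an Fc receptor-like protein of microglia, was the member with the second smallest p at 3 months. It read -2.33, -1.58, -2.24 and -1.93 in TgproNGF#3 against -1.37, -1.14, -1.58 and -1.30 in WT, so that the WT values lay at or above the highest TgproNGF#3 value. Its Log2 FC was -0.67 ± 0.19 with a limma adjusted p of 0.0576. At 12 months it read -1.60, -3.07 and -2.46 against -1.14, -1.54 and -1.87, a Log2 FC of -0.86 ± 0.37 with overlapping groups. At 1 month the WT arrays split, with -2.10 and -2.47 on replicates 1 and 3 and -0.71 and -0.78 on replicates 2 and 4, and the TgproNGF#3 arrays read -0.96, -0.84, -1.68 and -0.80. Gpr34, a lysophosphatidylserine receptor, had a Log2 FC of -0.50 ± 0.22 at 3 months (unadjusted p of 0.046). Siglech, a sialic acid-binding lectin, had -0.39 ± 0.17 (unadjusted p of 0.047). Tmem119, a membrane protein that separates microglia from other macrophages, stayed within -0.25 and 0.12 at the 3 ages. Selplg, a selectin ligand, had Log2 FC of 0.24, 0.45 and -0.19, and Olfml3, a secreted matrix protein, of 0.15, 0.27 and 0.24.

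Csf1r, the receptor for Csf1 and Il34 on which microglia depend, read 3.66, 3.50, 3.57 and 3.17 in TgproNGF#3 and 3.68, 3.03, 3.55 and 3.16 in WT at 1 month. At 3 months it was 3.02, 2.67, 2.58 and 2.56 against 3.05, 3.08, 3.1 and 3.1, every TgproNGF#3 array below every WT array. Non-overlap of the groups occurred in 19.3% of all genes at that age, and the Log2 FC was -0.37 ± 0.14 with a limma adjusted p of 0.127. A further Csf1r probe gave -0.55 (unadjusted p of 0.00487). At 12 months Csf1r read 2.92, 2.96 and 3.05 against 3.25, 3.15 and 3.08. Here too the groups did not touch, as in 15.9% of all genes, at a Log2 FC of -0.18 ± 0.13. Irf8, an interferon regulatory factor needed for microglial identity, had Log2 FC of 0.17, -0.03 and -0.27. Spi1 had a Log2 FC of 0.36 ± 0.26 at 1 month and was not well above background on any array of 3 or 12 months.

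Of the 6 genes of ITAM and ITIM signalling, 1 was higher at an unadjusted p below 0.05 at 1 month, 1 higher at 3 months and 3 lower at 12 months, against 2.86%, 24.9% and 8.1% of all genes in either direction. Tyrobp, the adaptor also named DAP12 that carries the signal of Trem2, read 1.53, 1.82, 1.25 and 1.22 in TgproNGF#3 and 0.96, 0.75, 1.03 and 0.73 in WT at 1 month. Every TgproNGF#3 array lay above every WT array, which held for 2.94% of all genes in either direction, and the Log2 FC was 0.59 ± 0.19 (1.5-fold, unadjusted limma p of 0.0103, adjusted p of 1). At 3 months it read 1.66, 0.34, 0.69 and 0.75 against 0.55, 0.86, 0.58 and 0.87, with replicate 1 alone above all WT arrays. At 12 months it read 0.53, 0.36 and 0.66 against 1.16, 1.11 and 0.66, with a Log2 FC of -0.47 ± 0.18 (adjusted p of 0.549). The lowest WT array there was replicate 3, which equalled the highest TgproNGF#3 array to 2 decimals. With array row as a block the Log2 FC of Tyrobp was -0.14.

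Trem2, the lipid-sensing receptor that pairs with Tyrobp, had the smallest p of the members at 12 months. It read -0.54, -0.20 and -0.35 in TgproNGF#3 and 1.01, 0.77 and -0.18 in WT, a Log2 FC of -0.90 ± 0.30 (unadjusted limma p of 0.0192, adjusted p of 0.549). WT replicate 3 lay just above the highest TgproNGF#3 array and far below the other WT arrays. With array row as a block the Log2 FC was -0.18, and without WT replicate 3 it was -1.26. At 1 month Trem2 read 1.54, 1.49, 0.85 and 1.19 against 1.05, 0.53, 1.16 and 0.68 (Log2 FC 0.41 ± 0.22), and at 3 months its Log2 FC was -0.01. Fcer1g, the common Fc receptor gamma chain, read -0.36, -0.47 and -0.23 against 0.28, 0.21 and -0.22 at 12 months. Its Log2 FC was -0.44 ± 0.17 (adjusted p of 0.549) and -0.13 with array row as a block. Fcgr3, an IgG receptor that uses the gamma chain, had Log2 FC of 0.20, -0.21 and -0.33.

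Cd33, a sialic acid receptor, went the other way at 3 months. It read -4.03, -4.64, -4.34 and -5.18 in TgproNGF#3 and -5.67, -5.64, -5.38 and -4.79 in WT, a Log2 FC of 0.82 ± 0.28 (limma adjusted p of 0.0968). It was called only when TgproNGF#3 replicate 4 or WT replicate 4 was left out, at up to 1.03. At 1 month its Log2 FC was 0.77 ± 0.38, and it was called there without TgproNGF#3 replicate 4. Over all alternatives its Log2 FC ranged from 0.301 to 1.03 at 3 months and from 0.348 to 1.096 at 1 month. At 12 months the Log2 FC was 0.16. Inpp5d, the phosphatase SHIP1, stayed within 0.00 and 0.10 at the 3 ages.

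Of the C1q chains, which together form the recognition molecule of the classical complement pathway, C1qa read 0.94, 1.35, 0.91 and 1.04 in TgproNGF#3 and 0.78, 0.86, 0.43 and 0.71 in WT at 1 month. The groups did not overlap and the Log2 FC was 0.36 ± 0.18 (unadjusted limma p of 0.0647). At 3 months C1qa read 0.95, 0.33, 0.35 and 0.30 against 0.34, 0.62, 0.53 and 0.58. At 12 months it read 0.10, -0.45 and 0.22 against 0.64, 0.43 and -0.04. The groups overlapped at these ages. In the order of age, C1qb had Log2 FC of 0.25, -0.26 and -0.65 and C1qc of 0.05, -0.27 and -0.51, none at an unadjusted p below 0.05. With array row as a block they changed sign at 12 months, to 0.009 and 0.075. Itgam, the integrin subunit CD11b of complement receptor 3, stayed within -0.12 and 0.07 by its brightest probe, while its further probes reached 0.30 at 1 month and -0.39 at 12 months. The brightest probe averaged 8.65 and 10.3 above the further ones, and which of them reads Itgam was not tested.

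Among the genes of lysosomes and phagocytosis, Mpeg1, a pore-forming protein of macrophages, had the smallest p at 1 month. It read 0.33, 0.51, 0.11 and 0.09 in TgproNGF#3 and -0.20, -0.19, -0.40 and -0.28 in WT, with no overlap. Its Log2 FC was 0.53 ± 0.17 (1.44-fold, unadjusted limma p of 0.00943, adjusted p of 1). Cd68, a lysosomal glycoprotein, read 0.18, 0.23, -0.19 and 0.13 against -0.17, -0.38, -0.32 and -0.24 at 1 month, a Log2 FC of 0.36 ± 0.16. TgproNGF#3 replicate 3 alone fell within the WT range. Cd68 read -0.18, -0.26, -0.10 and -0.96 against -0.60, -0.60, -1.16 and -0.79 at 3 months (Log2 FC 0.41 ± 0.22). At 12 months it read -0.63, -1.04 and -0.51 against -0.42, -0.35 and -0.53, and the groups overlapped. Ctss, the protease cathepsin S, had a Log2 FC of -0.46 ± 0.17 at 3 months (unadjusted p of 0.0258, adjusted p of 0.128). Laptm5, a lysosomal membrane protein, had Log2 FC of 0.04, 0.46 and -0.28, none at an unadjusted p below 0.05.

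Cd53, a leukocyte tetraspanin, was the called gene. At 3 months its probe was well above background on 2 of 4 TgproNGF#3 arrays, at -7.02 and -5.39, and on all WT arrays, at -3.86, -3.63, -3.38 and -4.10. On the other TgproNGF#3 arrays it read -7.38 and -7.44, not well above background. The fit, which uses the 2 values that passed, gave a Log2 FC of -2.46 ± 0.43 (limma adjusted p of 0.0174). The arrays it drops read lower still, so the size, SE and p describe only the values that passed. Where the probe could be fitted, the alternatives gave a Log2 FC from -2.932 to -1.406. An adjusted p below 0.05 was reached by 6.53% of all genes at that age. The call rests on few values: without TgproNGF#3 replicate 1 or 2 the probe had too few values to be fitted. The array holds a single Cd53 probe. At 1 month Cd53 read -3.08, -3.06, -3.53 and -3.43 against -3.63, -3.48, -4.03 and -3.03, and at 12 months -3.80, -4.41 and -3.83 against -4.47, -4.24 and -4.04. The groups overlapped at both ages, and the low readings were those of TgproNGF#3 at 3 months.

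No other leukocyte gene was called at 3 months. Ptprc, the phosphatase CD45 found on all leukocytes, read -4.25, -4.60, -4.17 and -4.86 in TgproNGF#3 and -4.45, -4.13, -4.76 and -4.59 in WT at 3 months. It read -4.24, -3.61, -3.84 and -4.28 against -4.20, -3.82, -4.63 and -3.92 at 1 month. At 12 months it read -4.85, -5.21 and -4.68 against -5.24, -4.78 and -4.76, and its Log2 FC lay between 0.01 and 0.15 at the 3 ages. Ly86, the MD-1 protein that partners a Toll-like receptor relative, read -0.50, -0.44 and -0.45 against 0.60, 0.56 and -0.45 at 12 months. WT replicate 3 was again level with TgproNGF#3, and the Log2 FC was -0.70 ± 0.28, or -0.01 with array row as a block. Cd37, another tetraspanin, had Log2 FC of 0.28, 0.25 and -0.18. Cd14, the lipopolysaccharide co-receptor, had 0.46, -0.23 and -0.15, and Aif1, the actin-binding protein Iba1, had 0.27, 0.15 and -0.04.

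**Figure D2:**
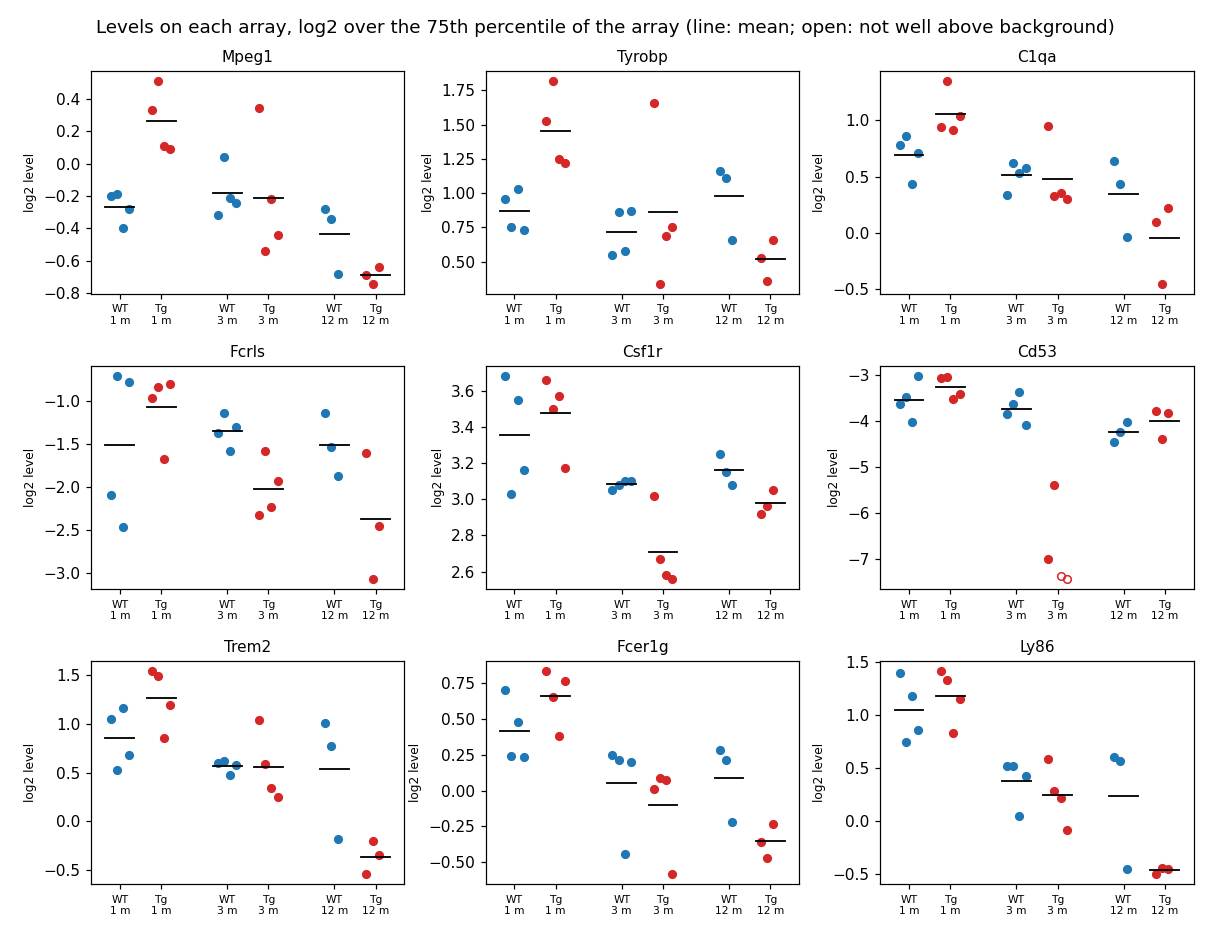
Level on each array (y axis, log2 over the 75th percentile of the array) of 9 genes by group (x axis), with WT in blue, TgproNGF#3 (Tg) in red, group means as lines and open circles where the spot was not well above background. Mpeg1 and Tyrobp separate at 1 month, Cd53 at 3 months reads -7.02 and -5.39 in TgproNGF#3 with the other arrays not well above background, and at 12 months a single WT array (replicate 3) lies at the TgproNGF#3 level for Trem2, Fcer1g and Ly86.

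The change of the genotype difference with age was tested in a fit of 4 groups. From 1 to 3 months the difference of Cd53 moved by -2.73 ± 0.48 (limma adjusted p of 0.0078), and from 3 to 12 months by 2.70 ± 0.51 (adjusted p of 0.0141). These comparisons share the 3-month arrays. For Cd53 both use only the 2 TgproNGF#3 values of 3 months that were well above background. The arrays dropped read lower, so the sizes are not exact. No other member had an adjusted p below 0.05, against 1.25% and 3.4% of all genes. The members' median moved by -0.262 and by -0.238 (all genes -0.124 and 0.118). Fcrls moved by -1.12 ± 0.48 from 1 to 3 months (adjusted p of 0.319), and Trem2 by -0.88 ± 0.35 from 3 to 12 months (adjusted p of 0.183).

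Several probes were tested for 9 members. They shared the direction of the genotype difference in 7 of 9 genes at 1 month, 7 of 8 at 3 months and 5 of 9 at 12 months. The exceptions were Itgam at each age, Laptm5 at 1 month, and Cx3cr1, Siglech and Olfml3 at 12 months. For Olfml3 the probes gave 0.24 and -0.96.

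After each group mean was subtracted, 30 members had a median pairwise correlation of 0.312 over 22 arrays with 78.2% of pairs above 0, against 0.257 and 75% over all genes; arrays share labelling and scaling, so these are descriptions. The correlation with the mean of the other members was 0.82 for Irf8, 0.79 for Tmem119 and Fcgr3, and 0.77 for Cd68. It was 0.09 for Itgam, 0.00 for Siglech, -0.05 for Olfml3 and -0.10 for Fcrls. The further probe of Siglech and of Olfml3 gave 0.59 and 0.55, and the further probes of Itgam 0.36 and 0.15. The brightest Siglech probe averaged 6.22 above the further one, and which of them reads Siglech was not tested.

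Markers of border macrophages and leptomeningeal fibroblasts were called lower at 12 months, when 1.18% of all genes were called. At that age 8 of 8 border macrophage markers tested were below WT (median -0.932), and 3 were called lower: Pf4, a platelet factor chemokine (-1.18 ± 0.21), Cbr2, a carbonyl reductase (-1.15 ± 0.17), and Mrc1, the mannose receptor (-1.01 ± 0.19). Their limma adjusted p ranged from 0.501 to 0.549. The summed linear level of the 7 border macrophage probes seen on every array was 0.519 to 0.804 in TgproNGF#3 and 1.06 to 1.58 in WT. Of the leptomeningeal fibroblast markers 11 of 12 were below WT (median -1.22) and 7 were called lower, led by the collagens Col3a1 (-1.80) and Col1a2 (-1.65) and the retinoic acid enzyme Aldh1a2 (-1.55). Their summed level was 6.94 to 11.5 against 9.13 to 13.1. Choroid plexus markers were below WT in 10 of 10 (median -0.88; -0.493 at 1 month and -0.925 at 3 months, also 10 of 10), none called. Without WT replicate 1 the choroid plexus median at 1 month was -1.287. Monocyte and neutrophil markers were below WT in 4 of 4 (-0.989), with S100a8 (-1.69) and S100a9 (-1.42) called, and oligodendrocyte markers in 7 of 8 (-0.163), none called. Neuronal markers were above WT in 7 of 8 (0.13, 2 at an unadjusted p below 0.05) and erythroid markers in 4 of 5 (0.105), none called. Markers of astrocytes, endothelium and lymphocytes had medians of -0.037, -0.065 and -0.17. On WT replicate 3 the border macrophage and leptomeningeal lists stood at -0.162 and -0.237 relative to the WT mean, and on the TgproNGF#3 arrays at -0.515 or below and at -0.998 or below. Their part in the members' values was not tested.

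At 1 month the border macrophage markers were below WT in 8 of 8 (median -0.379), while 30 of 32 microglial genes were above. Endothelial markers were above WT in 6 of 6 (0.161) and oligodendrocyte markers in 6 of 8 (0.187), each with 1 at an unadjusted p below 0.05 and none called. Leptomeningeal markers were below WT in 9 of 12 (-0.296), and markers of neurons, astrocytes, lymphocytes and erythroid cells had medians of 0.102, 0.044, 0.082 and -0.273. The summed border macrophage level was 1.09 to 1.64 against 1.53 to 1.70. Markers of monocytes and neutrophils were below WT in 8 of 8 tested (median -0.731), with a summed level over 4 probes of 0.273 to 0.603 against 0.357 to 3.61. Relative to the WT mean, the median of the 5 of these genes with a value on all arrays was 1.778 on WT replicate 1, -1.391, 0.15 and -0.742 on the other WT arrays and between -0.821 and -0.554 on the TgproNGF#3 arrays. Without WT replicate 1, 5 of 8 were below WT (median -0.453), 8 of 8 border macrophage markers were (-0.397) and 29 of 32 microglial genes were above it. At 3 months the leptomeningeal markers were above WT in 12 of 12 (median 0.358), with summed levels of 7.48 to 12.6 against 6.4 to 10. Border macrophage markers were above WT in 6 of 8 (0.119) and oligodendrocyte markers in 5 of 8 (0.332), while astrocyte markers were below it in 7 of 8 (-0.259) and monocyte and neutrophil markers in 4 of 5 (-0.613). Endothelial and erythroid markers had medians of -0.001 and -0.171. In each list 1 marker was called lower, at -2.07 (1 of 6 tested, limma adjusted p of 0.0126) and -2.17 (1 of 5, adjusted p of 0.000654). A monocyte or neutrophil marker was also called lower (-1.05, 1 of 5, adjusted p of 0.104 or above), against 4.13% of all genes. The summed level of 10 choroid plexus markers varied from 6.32 to 143 among the WT arrays of 1 month alone, and lay between 6.39 and 198 on the arrays of 3 and 12 months. Probes were well above background on every array for 7 of 9 border macrophage genes, 4 of 10 monocyte and neutrophil genes, 3 of 10 lymphocyte genes and 12 of 12 leptomeningeal genes. The part of these cells in the members' values was not tested.

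**Figure D3:**
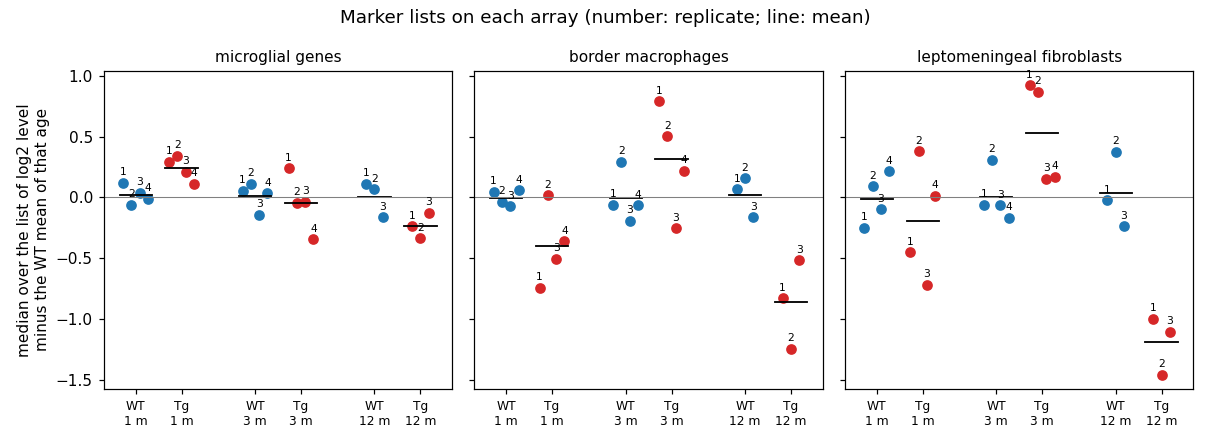
Median over a gene list of the log2 level minus the WT mean of that age (y axis) on each array, by group (x axis), for the microglial genes, border macrophages and leptomeningeal fibroblasts, with WT in blue, TgproNGF#3 in red, numbers for replicates and lines for means. The microglial genes shift by less, with WT replicate 3 at 12 months (-0.164) among the TgproNGF#3 arrays, whereas the other lists at 12 months fall to -0.515 or below on every TgproNGF#3 array.

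Among the partners of microglia and the genes of the disease-associated programme, 1 and 2 genes were called at 3 months. Of 21 partner genes tested at 3 months 1 was called, Entpd1, the ectonucleotidase CD39 that clears ATP for P2ry12 (-1.36 ± 0.18, limma adjusted p of 0.00463), against 4.13% of all genes, and none of 23 at 1 month or 21 at 12 months. Of the disease-associated genes, 17 of 20 were above WT at 1 month (median 0.09), 11 of 20 at 3 months (0.048) and 4 of 17 at 12 months (-0.234). Called were Cst7, a cystatin (1.01), and Ch25h, a cholesterol hydroxylase (-1.05), at 1 month, Gpnmb (1.16) and Ch25h (-2.05, adjusted p of 0.00557) at 3 months, and Lpl, lipoprotein lipase (1.24), and Lyz2, lysozyme (-1.39), at 12 months. These were 2 of 20, 2 of 20 and 2 of 17 genes tested, against 0.347%, 4.13% and 1.18% of all genes. Other than Ch25h at 3 months, they had adjusted p above 0.05. Without WT replicate 1 of 1 month, 12 of 20 were above WT at that age.

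In WT mice Laptm5 and Olfml3 fell from 1 to 3 months and rose from 3 to 12 months, and no other member was called. From 1 to 3 months all genes had a median of -0.438 on this scale and the members -0.287. The sign of the members' median depended on the scaling (-0.515 with the median in place of the percentile, 0.17 with the percentile over all spots), whereas the members stood above the median of all genes by 0.151, and by 0.111 with dim spots kept. Laptm5 read -0.98, -0.75, -0.65 and -0.81 at 1 month and -2.36, -2.79, -2.57 and -2.72 at 3 months. It was lower by 3.5-fold (-1.81 ± 0.16, limma adjusted p of 0.000159), and its second probe gave -1.70. Olfml3 read 1.63, 0.79, 1.60 and 0.41 at 1 month and -0.25, -1.05, -0.59 and -0.43 at 3 months (-1.69 ± 0.32, adjusted p of 0.00192). Its further probe is not given apart. Over the alternatives, the mean of its probes among them, Olfml3 changed by -1.924 to -1.189. These were the 2 of 31 members called, against 6.79% of all genes. An adjusted p below 0.05 was reached by 9 members, all lower (the others were P2ry13, Fcgr3, Inpp5d, Cd68, Cd37, Ly86 and Aif1), against 44.5% of all genes. With the percentile over all spots 6 members passed, and Laptm5 and Olfml3 changed by -1.35 and -1.23. Spi1 averaged -6.36 at 1 month and was not well above background at 3 months. On this scale it was at least 1.5-fold lower, the bound being set by the dimmest spots above background. The bound holds for this scale only, on which all genes had a median of -0.438.

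From 3 to 12 months in WT the same 2 genes were called higher, against 3.04% of all genes. Laptm5 read -0.90, -1.49 and -1.28 at 12 months (1.39 ± 0.18, limma adjusted p of 0.0014), and Olfml3 1.07, 0.33 and 1.58 (1.58 ± 0.34, adjusted p of 0.0131). Over the mean of its probes Olfml3 changed by 0.83 and was no longer called. Cd14 was lower, from -1.85, -1.83, -2.3 and -1.94 to -2.89, -2.51 and -2.77 (-0.74 ± 0.18, adjusted p of 0.021). No other member reached an adjusted p below 0.05 (7.06% of all genes). The members' median was 0.077, against 0.037 over all genes. Males of 3 months and females of 12 months were compared here, on different slides.

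**Figure D4:**
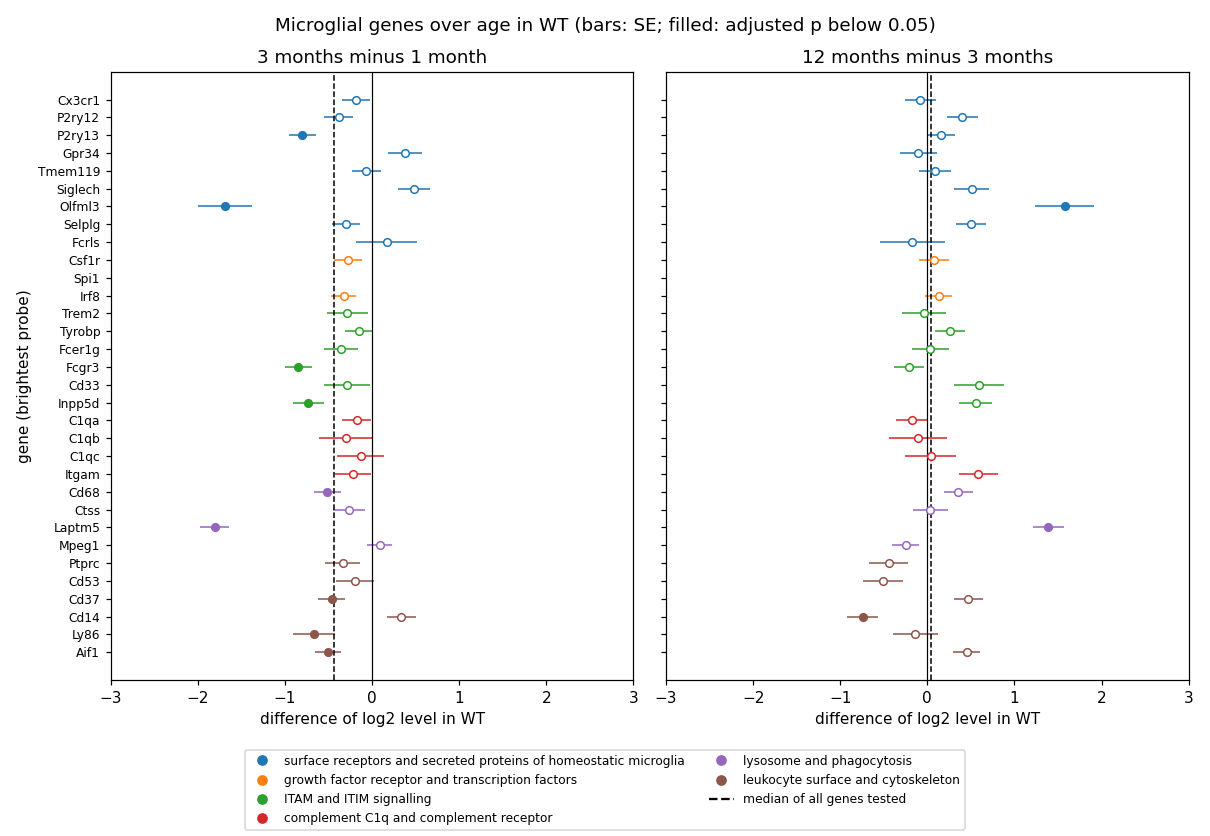
Difference of the log2 level between ages in WT mice (x axis) of each gene (y axis, coloured by role), with bars of 1 SE, filled points at an adjusted p below 0.05 and a dashed line at the median of all genes tested. Laptm5 and Olfml3 lie at -1.81 and -1.69 from 1 to 3 months and at 1.39 and 1.58 from 3 to 12 months, while the dashed line stands at -0.438 and 0.037.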

How the data were processed

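Total RNA of 22 hippocampi was hybridised to 1-colour Agilent 8x60K arrays. The authors deposited scanner files with an intensity per spot, computed by Agilent Feature Extraction 10.7.3.1 with background and spatial trends removed, and a table of log2 values shifted to a common 75th percentile; the submitters' processing notes also name limma. After removal of controls, outliers and spots near background, log2 intensities were scaled to each array's 75th percentile and spots of a probe were averaged. A gene was represented by its brightest probe. Probes were named through RefSeq transcripts, and 28067 of 55681 had a symbol. Groups were compared with limma 3.58.1 in R 4.3.3 (two-sided moderated test), where each group had 2 values or more. A gene was called at a p under 0.05, not adjusted, and an absolute Log2 FC over 1, and Benjamini-Hochberg adjusted p-values run over all probes. Alternatives covered the filter on dim spots, outlier flags, scaling, normexp background correction (offset 50) on median signals, the authors' values, the probe rule, blocks and leaving out each array. After the data were seen, marker lists at 1 month were also computed without WT replicate 1. The number of arrays limits precision.

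Every member was to be named, with values on every array for 6 genes and for those called or, failing that, with the smallest p. Of other lists, genes called were to be named, at most 3 per list. The called endothelial, erythroid and monocyte or neutrophil markers of 3 months are given by value without a name. The members and lists were chosen with earlier results of these data known. By the rule that each same-numbered pair correlate above 0.1 in deviations from the group means, replicate numbers could be read as pairs at 1 month (0.252 to 0.579, with differently numbered arrays at -0.645 to 0.437) and not at 3 months (-0.361 to -0.026) or 12 months (-0.329 to 0.025). The main fits, including those of 1 month, used no pairs. The replicate number entered only as a block in an alternative. No 2 arrays correlated above 0.9952, so each counted as 1 replicate. Promoters came from RefSeq (GRCm38.p6).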

Additional observations from a re-analysis of the deposited data

Results flagged for a closer look

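The genotype difference of Cd53 differed between ages in the test of that difference itself: it moved by -2.73 from 1 to 3 months (limma adjusted p of 0.0078) and by 2.70 from 3 to 12 months (adjusted p of 0.0141). Both rest on the 2 TgproNGF#3 arrays of 3 months on which the probe was well above background, so their sizes are not exact.

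In 7 of 125 sets of 4 arrays a single array stood apart from the others by the gap test (Dixon, 95%), which chance gives in about 1 of 20 sets. At 3 months these were TgproNGF#3 replicate 1 for C1qa (0.95, the others 0.30 to 0.35), TgproNGF#3 replicate 4 for Fcer1g (-0.58, the others 0.01 to 0.09) and Tmem119 (-0.47, the others -0.04 to 0.04), and WT replicate 3 for Cd37 (-2.80, the others -2.46 to -2.39), Fcer1g (-0.44, the others 0.20 to 0.25) and Tmem119 (-0.63, the others -0.15 to -0.07). At 1 month it was WT replicate 1 for Itgam (4.75, the others 5.15 to 5.23).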

How the results depend on the processing

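Of the recomputed values, 654 kept their side of the threshold or, for medians, stayed within the spread between WT arrays, 53 moved by more, 4 newly passed the threshold and 1 no longer passed it. The sign held for Mpeg1, Tyrobp, Cd68 and C1qa at 1 month, Cd53, Fcrls, Cd33 and Csf1r at 3 months and Trem2, Tyrobp, Fcer1g and Ly86 at 12 months wherever they could be fitted. Over all members, the genotype difference changed sign in at least 1 alternative for 8 of 32 genes at 1 month, 12 of 31 at 3 months and 13 of 31 at 12 months, and the WT difference for 20 of 31 from 1 to 3 months and 13 of 31 from 3 to 12 months. The members' median changed sign in 7 of 21 alternatives at 3 months, 3 of 21 in WT from 1 to 3 months and 2 of 21 in WT from 3 to 12 months. At 3 months the members' median was 0.111 with dim spots kept and 0.098 with the percentile over all spots, and the count of members called was 0 with the authors' log2 values, which list no Cd53 probe, and 0 over probes well above background on every array. At 12 months 1 member (Spi1) was called with dim spots kept, and the median was -0.043 with the median in place of the percentile and -0.043 with array row as a block. In WT from 1 to 3 months 9 members passed an adjusted p below 0.05 and 4 were called with scaling to the median, where the members' median was -0.515; it was 0.158 with dim spots kept, 0.17 with the percentile over all spots and 0.116 with the authors' values. From 3 to 12 months in WT 1 member was called over the mean of all probes. For the genotype difference of 12 minus 3 months, calls numbered 3 with dim spots kept, 2 with the percentile over all spots and 0 over probes well above background on every array, and the median was -0.399, -0.395 and -0.407 (authors' values). For 3 minus 1 months, calls numbered 1 with the adjusted threshold, 1 with dim spots kept, 1 with the percentile over all spots, 1 over probes well above background on every array and 0 with the authors' values, and the median was -0.066, -0.066 and -0.086. Leaving out each array gave 0 to 1 calls at 1 month (Cd33 without TgproNGF#3 replicate 4), 0 to 2 at 3 months (0 without TgproNGF#3 replicate 1 or 2; Cd33 and Cd53 without replicate 4 of either genotype), 0 to 3 at 12 months (Fcrls without TgproNGF#3 replicate 1), 0 to 2 for 12 minus 3 months and 0 to 2 for 3 minus 1 months. Medians ranged from -0.15 (without TgproNGF#3 replicate 1) to 0.041 at 3 months, from -0.039 to 0.22 (without WT replicate 3 of 12 months) in WT from 3 to 12 months, and from -0.38 to -0.149 for 3 minus 1 months. With the replicate number as a block Cd53 at 3 months was -2.46 (adjusted p of 0.0447) and the median of the members at 12 months -0.192; the block changed no member's call. Counts of members called under the alternatives are given without the share of all genes called there, so they show no excess over all genes. Except where the construction shows it, the cause was not tested. Probes near background, Spi1 and Cd53, limit what can be said at 3 and 12 months.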
